A study of Mus musculus with 46 samples.

Results

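The proteasome genes measured here are those whose only annotated symbol has the form Psma, Psmb, Psmc, Psmd or Psme followed by a digit, 44 genes out of 15964 genes with a probe set of 1 symbol. They were reached by 74 of 36701 probe sets, and each gene is given by its brightest probe set, so levels are never compared between genes. The rule gave 8 genes of the 20S alpha class, 8 of the 20S beta class, 4 immune genes (Psmb8, Psmb9, Psmb10 and Psme1), 20 of the 19S class and 4 others. Of the others, Psme3 and Psme4 encode activators of the core, while Psmc3ip and Psme3ip1 only match the pattern and are partners of subunits. The immune gene Psme2 was reached only by probe sets annotated to both Psme2 and Psme2b, so it is not counted as a member and is given apart. 41 of the 44 passed the filter on dim probe sets. Psmb11, the thymus form of a catalytic subunit, Psmd2, a scaffold of the 19S base, and Psmc3ip did not, and 39 lay above the filter value on every array.

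Whole lung RNA was measured on oligonucleotide arrays of 3 types, called A, B and C, with 14, 16 and 16 arrays. The samples form 8 groups: wild type mice sampled at 0 h, or once they had breathed 100% oxygen for 24, 48 or 72 h, and Nrf2 mutant mice sampled at the same 4 times. No group was sampled at a later time without oxygen, so in changes from 0 h oxygen cannot be told apart from time or handling. The labels name replicates 1a and 1b in each group, but on array type A only replicate 1b was used for wild type at 24 h and for the mutant at 0 h, so that these groups have n = 1 for the 38 members read on A. Psmb5 and Psmb11 were read on B, and Psmc3, Psmc4, Psmd10 and Psma8 on C. The strain, the age and the kind of mutant allele are not stated in the sources used here. Nothing in the labels ties 1a and 1b to different animals, so the p-values cover the spread among these samples, which may be technical.

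The proteasome degrades proteins tagged with ubiquitin. Its 20S core is a barrel of alpha rings around beta rings, and Psmb5, Psmb6 and Psmb7 carry its catalytic sites. The 19S cap recognises, unfolds and feeds substrates to the core, with ATPases encoded by the Psmc genes and other subunits by the Psmd genes. Interferon gamma induces Psmb8, Psmb9 and Psmb10, which replace Psmb5, Psmb6 and Psmb7 in the immunoproteasome, and Psme1 and Psme2, which form an activator of the core. Lymphocytes and other blood-derived cells hold much immunoproteasome even without stimulation, and its peptides are loaded on class I molecules after transport by TAP. NRF2, the product of Nfe2l2, raises 20S subunit genes in several cell models of oxidant stress through antioxidant response elements, and its relative NRF1 (Nfe2l1) restores proteasome genes when the proteasome is inhibited.

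Promoter windows of 300 bases, 250 before and 50 from the annotated gene start, are shown for the immune genes whose wild type level fell most and for the constitutive catalytic genes that hold an antioxidant response element core. The sequences are RefSeq's in build GRCm38.p6, read along the gene's strand, and 37 of the 44 members matched a window. The letters searched on both strands were TGACNNNGC (antioxidant response element core), TTCNNNGAA (gamma-activated site), CCAAT, and GAAA followed after any 2 bases by GAAA (interferon-stimulated response element). Capitals mark a match to any of them.
Psmb9, chr17:34187281-34187580, minus strand: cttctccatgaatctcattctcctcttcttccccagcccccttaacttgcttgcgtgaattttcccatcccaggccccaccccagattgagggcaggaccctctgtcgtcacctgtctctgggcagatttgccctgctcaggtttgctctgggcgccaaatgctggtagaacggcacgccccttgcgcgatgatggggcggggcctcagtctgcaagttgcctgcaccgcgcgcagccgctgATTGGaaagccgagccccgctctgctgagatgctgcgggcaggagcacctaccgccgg
Psmb8, chr17:34197945-34198244, plus strand: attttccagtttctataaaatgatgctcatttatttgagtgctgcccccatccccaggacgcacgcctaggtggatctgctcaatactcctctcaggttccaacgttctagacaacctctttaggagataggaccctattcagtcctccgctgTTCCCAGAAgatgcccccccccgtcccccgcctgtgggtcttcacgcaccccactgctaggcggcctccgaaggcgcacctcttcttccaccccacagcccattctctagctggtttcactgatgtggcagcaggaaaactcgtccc
Psmb5, chr14:54617946-54618245, minus strand: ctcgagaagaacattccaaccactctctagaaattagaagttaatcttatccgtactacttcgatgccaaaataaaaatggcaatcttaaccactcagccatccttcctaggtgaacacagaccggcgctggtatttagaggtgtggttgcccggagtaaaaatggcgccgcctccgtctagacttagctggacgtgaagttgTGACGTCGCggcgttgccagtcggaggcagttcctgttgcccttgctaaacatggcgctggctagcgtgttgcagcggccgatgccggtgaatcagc
Psmb6, chr11:70525107-70525406, plus strand: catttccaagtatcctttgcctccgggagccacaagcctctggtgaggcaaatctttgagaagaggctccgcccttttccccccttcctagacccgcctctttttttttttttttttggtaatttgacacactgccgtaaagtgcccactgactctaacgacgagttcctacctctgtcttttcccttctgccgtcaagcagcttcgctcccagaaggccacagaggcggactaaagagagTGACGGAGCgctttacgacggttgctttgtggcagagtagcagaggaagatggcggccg
In Psmb9 the capitals are a CCAAT box on the other strand, and in Psmb8 a gamma-activated site that starts 97 bases before the gene start. Psmb5 holds TGACGTCGC from 47 bases, and Psmb6 TGACGGAGC from 9 bases, before the start. The Psmb9 window shares 275 bases with that of Tap1, the peptide transporter gene, which runs the other way at chr17:34187306-34187605.

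Across the members, the antioxidant response element core stood in 15% of 40 windows (6 genes: Psmb5, Psmb6, Psmc6, Psmd9, Psmd12 and Psme4), against 12.4% of all 32851 windows. None of the 7 genes of the 20S alpha class and none of the 4 immune genes with a window held it. The interferon-stimulated element stood in 10% of member windows (Psme1, Psmb3, Psmd4 and Psmd9) against 3.44% of all. The gamma-activated site stood in 5% (Psmb8 and Psmd2) against 8.30%, and the CCAAT box in 40% against 37.4%. Such matches are letters in a window and not sites shown to be bound.

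Some arrays stood apart. The 5 mutant 0 h arrays correlated with the other arrays of their type at a mean of 0.827 to 0.858, against 0.879 to 0.940 for the remaining 41. For Gapdh, the ratio of 3' to 5' probe set signal, a measure of RNA quality, was 1.67 to 2.26 on them and 0.858 to 1.54 elsewhere. On array type A the summed intensity of 3 skeletal muscle markers was 24433 in the mutant 0 h sample and at most 2303 in any other sample, and that of 3 squamous epithelium markers was 32551 against at most 1677. Comparisons with the mutant's own 0 h sample, and between genotypes at 0 h, rest on these arrays, and they also enter the limma fits. Lung markers were present in all groups: the summed intensity of 3 alveolar type 2 markers was 21102 to 55382 on the arrays of type A. The targeted gene matched the labels: Nfe2l2 had mutant minus wild type log2 differences of -2.31, -3.00, -3.06 and -3.17 from 0 to 72 h (adjusted p at most 0.00165), with 2428 to 4488 on wild type and 302.5 to 448.4 on mutant arrays.

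**Figure D1:**
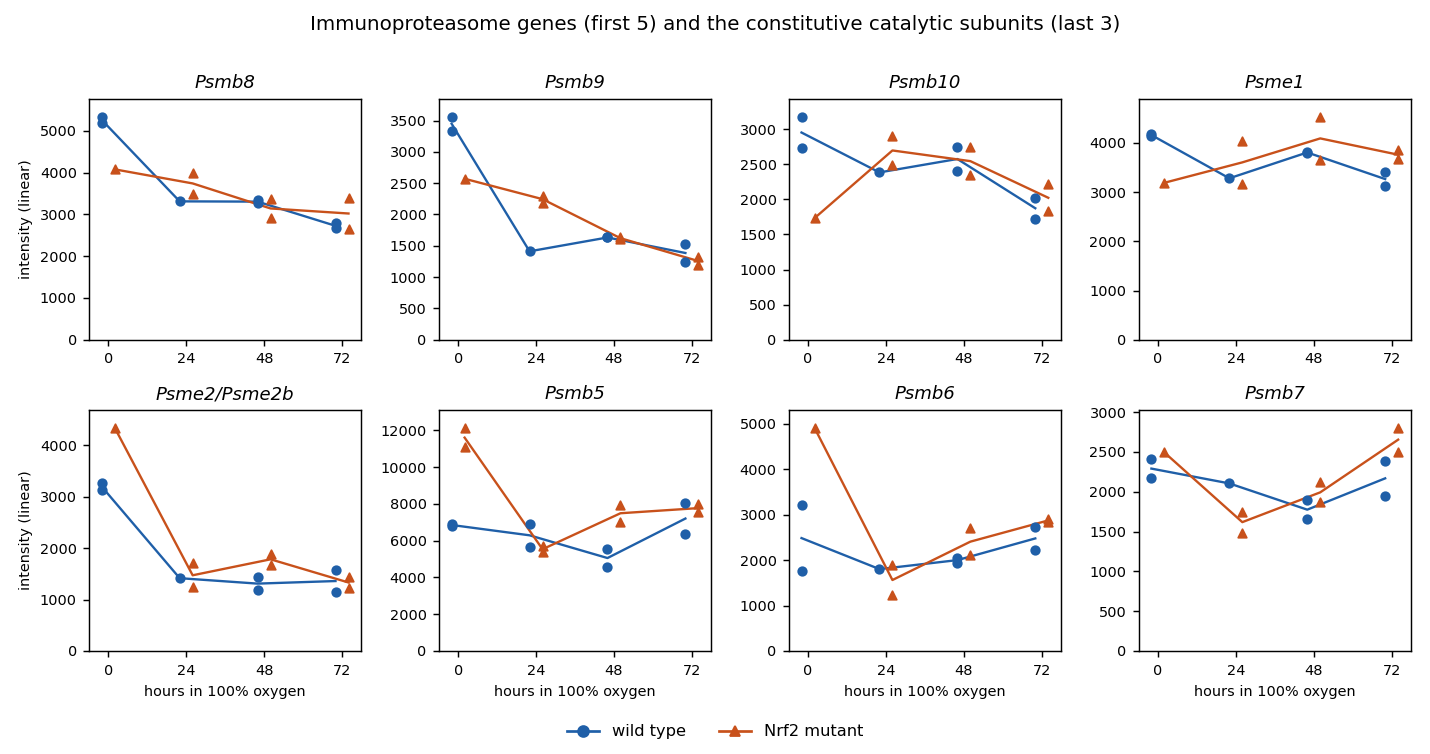
Linear intensity against hours in 100% oxygen for the immunoproteasome genes Psmb8, Psmb9, Psmb10, Psme1 and the shared Psme2/Psme2b probe set, and for the constitutive catalytic genes Psmb5, Psmb6 and Psmb7. Each point is 1 array, moved slightly sideways by genotype, lines join group means, and both Psmb9 arrays of wild type at 0 h (3334 and 3563) lie above every later array, as do both of Psmb8 (5178 and 5339).

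In wild type lung, oxygen was followed by lower levels of the immunoproteasome genes Psmb9 and Psmb8. Psmb9, which encodes an interferon-induced catalytic subunit, measured 3334 and 3563 at 0 h, 1411 at 24 h, 1632 and 1633 at 48 h, and 1521 and 1248 at 72 h. No oxygen array reached the 0 h arrays. Each change is a log2 difference with its SE, from a limma fit that covered the 8 groups, with p adjusted over all 26833 tested probe sets, and it is called where the adjusted p is under 0.05. Psmb9 fell by 1.24 ± 0.19 at 24 h (2.37-fold, adjusted p = 0.0116), by 1.04 ± 0.15 at 48 h (2.06-fold, adjusted p = 0.00428) and by 1.28 ± 0.15 at 72 h (2.42-fold, adjusted p = 0.000877). At 48 and 72 h this call held under all 24 alternative settings. At 24 h it was lost without replicate 1b of wild type 0 h (-1.2) and with only the arrays compared.

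Psmb8, the subunit that replaces Psmb5, measured 5178 and 5339 in wild type at 0 h, 3310 at 24 h, 3271 and 3336 at 48 h, and 2780 and 2669 at 72 h. It fell by 0.93 ± 0.17 at 72 h (1.90-fold, adjusted p = 0.00848) and by 0.66 ± 0.17 at 48 h (1.58-fold, adjusted p = 0.0443), and the groups did not overlap. The 24 h difference was about as large, -0.66 ± 0.21, with an adjusted p of 0.159 and n = 1 at 24 h. The 48 h call was close to the threshold and was lost under 13 of 24 alternative settings, where the difference ranged from -0.68 to -0.64. The 72 h call was lost without replicate 1b of wild type 0 h (-0.91), without replicate 1b of wild type 72 h (-0.90) and with only the arrays compared. A dimmer Psmb8 probe set on array type C did not share the fall, with -0.08 ± 0.48 at 72 h and 0.71 ± 0.48 at 48 h (adjusted p = 0.95 and 0.464).

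Psmb10, the subunit that replaces Psmb7, measured 2726 and 3182 in wild type at 0 h, 2385 at 24 h, 2742 and 2412 at 48 h, and 2028 and 1721 at 72 h. Its difference at 72 h was -0.64 ± 0.18 and missed the threshold (adjusted p = 0.0605). Psme1, which encodes a subunit of the activator, had differences of -0.34 ± 0.21, -0.13 ± 0.17 and -0.34 ± 0.17 at 24, 48 and 72 h, none of them called. Its arrays ran from 4140 and 4182 at 0 h down to 3129 at 72 h. For its partner, the probe set shared by Psme2 and Psme2b measured 3132 and 3259 at 0 h, 1416 at 24 h, 1184 and 1435 at 48 h, and 1138 and 1582 at 72 h. That probe set fell by 1.24 ± 0.21 at 48 h (adjusted p = 0.00834) and by 1.2 ± 0.21 at 72 h (adjusted p = 0.00689), and at 24 h its difference of -1.13 ± 0.26 had an adjusted p of 0.06. Which of the genes gave the signal cannot be told from it.

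As a class, the 4 immune members had wild type medians of -0.50, -0.42 and -0.78 at 24, 48 and 72 h, beside medians over all tested probe sets of -0.06, -0.03 and -0.06. All 4 were negative at each time, and 1, 2 and 2 of them were called lower, where 0.76%, 3.39% and 3.57% of all tested probe sets were called lower. The differences at 24, 48 and 72 h share their 0 h arrays, so these signs and calls are not independent between times. Markers of several cell types moved at the same times. In bulk tissue, fewer cells of a type and less RNA per cell cannot be told apart. Of 7 tested T and NK cell markers, 2, 4 and 4 fell at 24, 48 and 72 h, and 2, Cd3d and Cd4, were positive at every time without a call. Cd3e, a chain of the T cell receptor complex, had -2.24, -2.07 and -2.07, and the protease gene Gzma -1.81, -1.24 and -1.26. Of 3 B cell markers, 0, 3 and 3 fell, with Ms4a1, which encodes CD20, at -2.39 and -1.98 at 48 and 72 h. The summed intensity of the 5 T and NK markers on array type A was 2659 to 3350 at 0 h and 1180 to 1493 on the oxygen arrays of wild type, and that of the B cell list was 9483 to 9584 against 2316 to 4993. Of 5 neutrophil markers 0, 4 and 3 were called higher, and of 6 macrophage markers 1, 2 and 1. Of all probe sets, 0.962%, 3.25% and 4.26% were called higher. Not all of these markers rose: 2 neutrophil markers were negative at 24 h, and 2 macrophage markers at 24 h and at 48 h. Skeletal muscle markers fell, with 0, 3 and 3 of 4 called lower. The part of these cells in the immunoproteasome result was not tested.

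Interferon-induced genes also moved with the immune members. Of 12 tested, 2, 6 and 4 fell in wild type at 24, 48 and 72 h, where 0.76%, 3.39% and 3.57% of all probe sets were called lower. Ifit3 alone rose, at 72 h (1.1 ± 0.24, adjusted p = 0.0195), where 4.26% of all were called higher. The interferon-induced GTPase genes Gbp3 (-1.05, -1.66 and -2.24) and Ifi47 (-1.27, -1.68 and -1.57) fell at every time. The summed intensity of the 11 genes of this list on array type A was 16172 to 16371 at 0 h and 10028 to 11544 on the oxygen arrays. Of the 9 tested class I antigen processing genes only Erap1, an aminopeptidase that trims peptides, was called, at 24 h (-0.70 ± 0.15, adjusted p = 0.038) and at 72 h (-0.58 ± 0.15, adjusted p = 0.0362). Tap1, whose promoter window overlaps that of Psmb9, had -0.50, -0.17 and -0.14 in wild type and was not called, and H2-K1, a class I heavy chain gene, had 0.11, 0.02 and -0.32. The part of interferon signalling in the fall of Psmb9 was not tested.

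**Figure D2:**
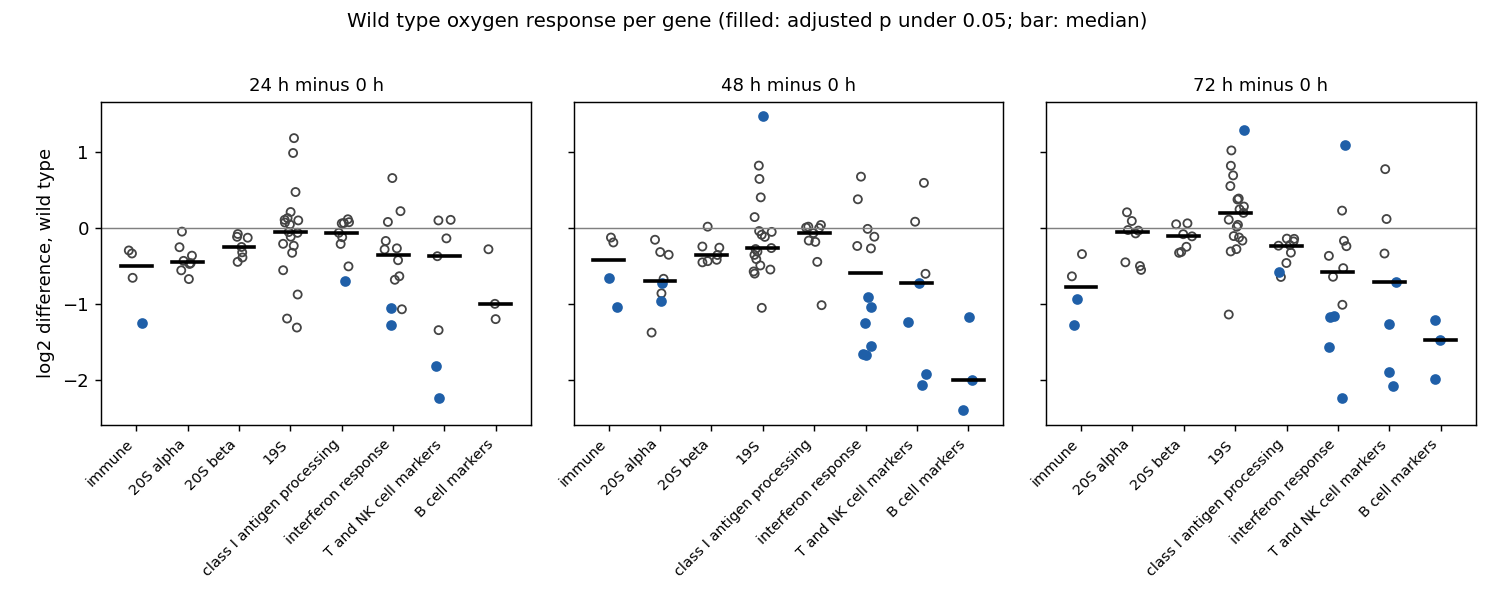
Log2 difference from 0 h in wild type lung at 24, 48 and 72 h of oxygen for each gene of 4 proteasome classes and of the class I, interferon, T and NK cell and B cell lists. Each circle is 1 gene, filled where called, and bars are medians, which for the immune class lie at -0.50, -0.42 and -0.78.

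In the mutant, Psmb9 fell between 24 and 72 h of oxygen, and no difference from wild type was called at any time. It measured 2570 at 0 h, 2298 and 2191 at 24 h, 1639 and 1603 at 48 h, and 1198 and 1313 at 72 h. At 24 h both mutant arrays lay above the wild type array of 1411, a difference of 0.64 ± 0.19 whose 95% interval ran from 0.22 to 1.06, but the adjusted p was 0.277. At 48 and 72 h the genotypes overlapped, with -0.01 ± 0.15 and -0.13 ± 0.15. From 24 to 72 h, a comparison free of the 0 h arrays, Psmb9 fell in the mutant by 0.80 ± 0.15 (1.74-fold, adjusted p = 0.016), while the wild type difference was -0.03 ± 0.19. The difference between these differences was -0.77 ± 0.24 with an adjusted p of 0.44, so the time courses of the genotypes were not shown to differ. The mutant call was lost on leaving out either array of mutant 24 h or of mutant 72 h (-0.86 to -0.74) and with only the arrays compared. In the mutant the sum of the T and NK cell markers was 1701 to 2215 at 24 h, above the 1230 to 1439 at 48 h and 1267 to 1344 at 72 h, and above the 1298 of wild type at 24 h. The sum of the B cell markers was lower in the mutant at 24 h, 3117 to 3282 against 4993 in wild type. In the mutant it was 3331 to 3647 at 48 h and 1879 to 2511 at 72 h. The sum of 5 neutrophil markers, like Psmb9, was higher in the mutant at 24 h, 18013 to 19531 against 8233 in wild type. In the mutant it was lower later, 3782 to 5797 at 48 and 72 h, while in wild type it was 16111 to 18232. The part of these cells in the Psmb9 values was not tested.

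Psmb8 in the mutant measured 4076 at 0 h, 3491 and 3987 at 24 h, 3368 and 2912 at 48 h, and 3395 and 2643 at 72 h, and no change was called against its own 0 h sample. Against the mutant's own 0 h sample, the one that stood apart, Psmb9 was called lower at 48 h (-0.64 ± 0.19, adjusted p = 0.039) and 72 h (-0.99 ± 0.19, adjusted p = 0.00409). Against wild type at 0 h, which mixes genotype with oxygen, Psmb9 had -0.60, -1.05 and -1.40 at 24, 48 and 72 h and Psmb8 -0.73 and -0.80 at 48 and 72 h, all called lower. These comparisons share their 0 h arrays with those of wild type.

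The 20S alpha subunits, which form the outer rings and the gate of the core, had 0, 2 and 0 of 8 called lower in wild type at 24, 48 and 72 h. Of all tested probe sets, 0.76%, 3.39% and 3.57% were called lower at these times. Psma7 measured 2111 and 3182 at 0 h, 1599 at 24 h, 1316 and 1268 at 48 h, and 1638 and 2146 at 72 h, and Psma2 measured 6158 and 7621 at 0 h, 5305 at 24 h, 4044 and 4186 at 48 h, and 5904 and 7188 at 72 h. At 48 h Psma7 fell by 0.96 ± 0.22 (1.95-fold, adjusted p = 0.0266) and Psma2 by 0.72 ± 0.17 (1.65-fold, adjusted p = 0.0359), with every 48 h array below every 0 h array. All 8 alpha genes were negative at 48 h, with a median of -0.70, against -0.45 at 24 h and -0.05 at 72 h. Psma1 (-0.86 ± 0.23, adjusted p = 0.0502) and Psma6 (-0.67 ± 0.19, adjusted p = 0.0598) lay just outside the threshold at 48 h. At 72 h no alpha gene was called, and the testis form Psma8, a dim probe set, had the lowest difference (-0.55).

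The call for Psma7 was lost without replicate 1b of wild type 0 h (-0.68), without replicate 1a or 1b of wild type 48 h (-0.99 and -0.94) and with only the arrays compared. That for Psma2 was lost without either replicate of wild type 0 h (-0.88 and -0.57) or of wild type 48 h (-0.70 and -0.75), without either replicate of mutant 24 h, which leaves the difference as it was, and with only the arrays compared.

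Of the 7 tested constitutive 20S beta subunits, none was called in wild type at 24, 48 or 72 h. Over all tested probe sets 1.72%, 6.64% and 7.83% were called, so with 7 genes this count does not set the class apart. Their medians were -0.25, -0.36 and -0.11. Psmb5, which carries the chymotrypsin-like site, measured 6804 and 6892 at 0 h, 6920 and 5654 at 24 h, 5540 and 4562 at 48 h, and 8050 and 6346 at 72 h. Its 48 h arrays were the lowest, with a difference of -0.44 ± 0.18 (adjusted p = 0.18), and the 72 h arrays spanned those of 0 h. Of 2 dimmer Psmb5 probe sets on array type A, the brighter was called lower at 48 h (-0.89 ± 0.21, adjusted p = 0.0357) and the other was not (0.23 ± 0.31). For Psmb6, of the caspase-like site, the differences were -0.39, -0.24 and 0.05, and for Psmb7, of the trypsin-like site, -0.12, -0.36 and -0.08. In Psmb1 the brighter probe set gave no call at 48 h (0.02 ± 0.17) while a dimmer one was called lower (-1.14 ± 0.22, adjusted p = 0.0139).

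In the 19S cap, 1 of 19 tested genes was called in wild type at 48 h and again at 72 h, no larger a share than the 6.64% and 7.83% of all tested probe sets. Psmd5, which encodes an assembly chaperone of the 19S base, measured 796.1 and 1170 at 0 h, 2290 at 24 h, 2952 and 2678 at 48 h, and 2974 and 2034 at 72 h. All oxygen arrays lay above both 0 h arrays. Psmd5 rose by 1.47 ± 0.28 at 48 h (2.77-fold, adjusted p = 0.0146) and by 1.28 ± 0.28 at 72 h (2.43-fold, adjusted p = 0.0222). Against the mutant's own 0 h sample, which stood apart, it was called higher at 48 h (1.74 ± 0.35, adjusted p = 0.00744) and 72 h (1.39 ± 0.35, adjusted p = 0.0171), and against wild type at 0 h (1.36 and 1.01). The Psmd5 probe sets on B and C did not share the rise, with 0.09 ± 0.42 and -0.42 ± 0.44 at 48 h and -0.17 ± 0.42 and -0.59 ± 0.44 at 72 h. The 48 h call was lost without replicate 1a of wild type 0 h (1.21) or either replicate of wild type 48 h (1.40 and 1.54), and the 72 h call without replicate 1a of wild type 0 h or of wild type 72 h (1.02 in both) and with only the arrays compared.

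The other 19S genes in wild type did not pass the test, with class medians of -0.05, -0.26 and 0.20 at 24, 48 and 72 h. At 72 h, 13 of 19 were positive. Psmd8, a lid subunit, measured 1275 and 1679 at 0 h, 1397 at 24 h, 1328 and 1416 at 48 h, and 2335 and 2982 at 72 h. Both 72 h arrays were the highest, with a difference of 0.82 ± 0.25 from 0 h (adjusted p = 0.081). Psmd4, a ubiquitin receptor, had 0.69 ± 0.20 at 72 h (adjusted p = 0.0672), with 3352 and 3714 against 1810 and 2566 at 0 h. Psmd14, the deubiquitinase of the lid, had -0.33, -0.60 and 0.11. At 72 h the lowest 19S difference was that of Psmc4 (-1.14), an ATPase gene with a dim probe set whose wild type arrays ran from 57.4 to 580.6. At 24 h it was that of Psmd10, an assembly chaperone (-1.31).

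**Figure D3:**
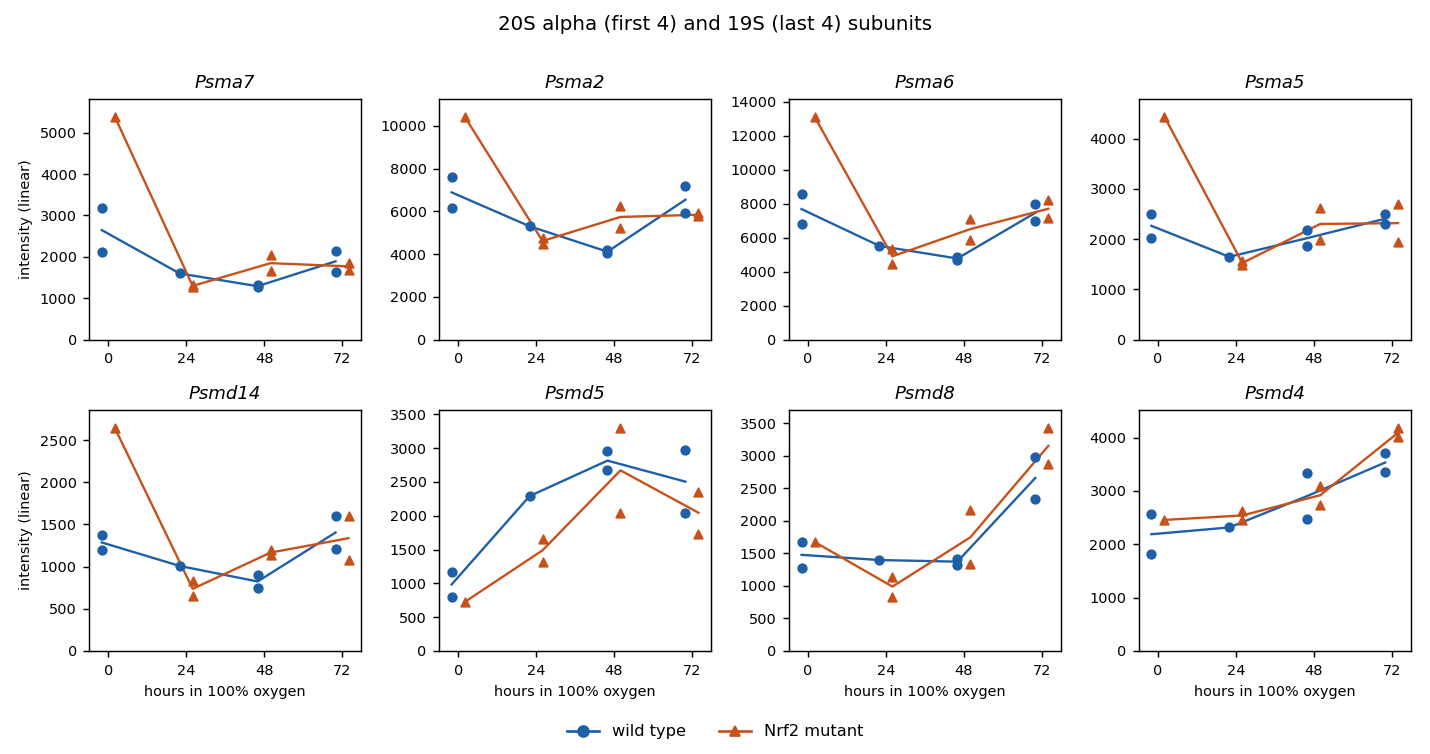
Linear intensity against hours in 100% oxygen for Psma7, Psma2, Psma6, Psma5, Psmd14, Psmd5, Psmd8 and Psmd4, 1 point per array, moved slightly sideways by genotype, with lines through group means. The mutant 0 h array is the highest for Psma7 (5387), Psma2 (10435), Psma6 (13118), Psma5 (4438) and Psmd14 (2646).

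Counted over all classes, 1, 5 and 3 of 41 members were called in wild type at 24, 48 and 72 h, where 1.72%, 6.64% and 7.83% of all tested probe sets were called. These are 0 higher and 1 lower at 24 h (0.962% and 0.76% of all probe sets), 1 higher and 4 lower at 48 h (3.25% and 3.39%), and 1 higher and 2 lower at 72 h (4.26% and 3.57%). Set against the background, 5 of 41 at 48 h and 3 of 41 at 72 h are small numbers and no test of the class. From 24 to 72 h of oxygen, no member was called in wild type (1.5% of all probe sets). At an unadjusted p under 0.05 there were 5 of 41, beside 3642 of all 26833 probe sets. In the mutant from 24 to 72 h, 3 members were called where 5.05% of all probe sets were (2.4% higher and 2.65% lower): Psmb9 fell as given above, Psmd8 rose by 1.61 ± 0.25 (3.05-fold, adjusted p = 0.00674) and Psmb7 rose by 0.69 ± 0.17 (1.61-fold, adjusted p = 0.0493). Psmd8 measured 1141 and 836.2 at 24 h, 1334 and 2160 at 48 h, and 2872 and 3429 at 72 h, a rise seen in both arrays, and Psmb7 measured 1485 and 1751, 2116 and 1868, and 2802 and 2505. Psmd8 lost its call without replicate 1b of mutant 24 h (1.40) or of mutant 72 h (1.48), and Psmb7 under 17 of 24 settings (0.58 to 0.80).

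No genotype difference under oxygen was called for any tested proteasome gene. Of 41 members, limma called 0 at 24, 48 and 72 h and 0 in the mean of the 3 times, where 0.157%, 0.376%, 0.82% and 1.25% of all probe sets were called. With shares this low, 0 of 41 does not set the members apart from other probe sets. At an unadjusted p under 0.05 there were 3, 7, 3 and 2 of 41 members, beside 2619, 2418, 2598 and 2945 of all 26833 probe sets. The 0 calls at 24 h, 72 h and in the mean held under every setting tried, and at 48 h a fit with trend and robust called 1. The smallest adjusted p at 48 h was that of Psmd6, a lid subunit gene, with 0.66 ± 0.15 (adjusted p = 0.105). In the same mean, 7 of 10 tested NRF2 targets were lower in the mutant, among them Gpx2 (-2.32 ± 0.11), Gsta3 (-1.69 ± 0.19), Gclc (-1.16 ± 0.12) and Nqo1 (-0.89 ± 0.12), with adjusted p-values from 4.33e-06 to 0.00437. That list, like the members, was chosen with earlier results of these data known, so it is no independent yardstick. The median over the members was 0.04, and over all tested probe sets -0.01.

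The spread between these samples, which may be technical, gives intervals for the genotype differences. In the mean of 24, 48 and 72 h, the 95% interval lay within 0.5 on either side of 0, on the log2 scale, for 32 of 41 members. For Psmb5 it ran from -0.06 to 0.39 around 0.17, for Psmb6 from -0.31 to 0.46 around 0.08, and for Psmd14 from -0.32 to 0.30 around -0.01. Psmb9 had 0.17 with an interval from -0.04 to 0.38. At a single time the bounds were wider, within 0.5 for only 2, 7 and 10 of 41. The extremes of the mean were Psmc3, an ATPase gene (0.83 ± 0.31, adjusted p = 0.314), and Psmd11, a lid subunit gene (-0.55 ± 0.22, adjusted p = 0.375). Psmc3 arrays under oxygen ran from 566.7 to 2898 in wild type and from 1929 to 3377 in the mutant, so the ranges overlap. These are values of 1 of 5 tested Psmc3 probe sets, with a wild type mean of 1331 and an SD of 1081 at 48 h. Other Psmd11 probe sets had -0.02 and -0.24.

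At single times the classes leaned in different directions without calls. At 24 h all 8 alpha and all 7 beta genes were lower in the mutant than in wild type, with medians of -0.19 and -0.17, while all 4 immune genes were higher, with a median of 0.17. Wild type at 24 h had n = 1 on array type A, so except for Psma8 and Psmb5 all these signs rest on that array. At 48 h all 8 alpha genes were higher, with a median of 0.41, and the beta median was 0.25. At 72 h the medians were -0.06 and 0.13. Psma7 at 48 h measured 1660 and 2036 in the mutant against 1316 and 1268 in wild type (0.49 ± 0.22), and Psmb5 7953 and 7019 against 5540 and 4562 (0.56 ± 0.18, adjusted p = 0.285). The groups of both did not overlap, and neither passed the test. The largest single differences were those of Psma8 at 48 h (1.63 ± 0.43, adjusted p = 0.19), where the wild type arrays lay below the filter value (160.3 and 113.1), and of Psmd10 at 72 h (-1.37 ± 0.43, adjusted p = 0.247). Of the 8 alpha genes, 7 are read on the same arrays of type A and Psma8 on type C, so their shared sign is not 8 independent observations.

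Genotype differences in the mean of the oxygen times were also read by the antioxidant response element core in the window. The 6 members with the core had a median of 0.10, from -0.20 to 0.19, and 2 were negative. The 28 tested members with a window but without the core had a median of 0.04, from -0.55 to 0.43, and 10 were negative. Of those with the core, Psmb5 had 0.17 and Psmb6 0.08, while Psmd9 had -0.20 and Psmd12 -0.09. The part of these letters in the genotype differences was not tested.

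**Figure D4:**
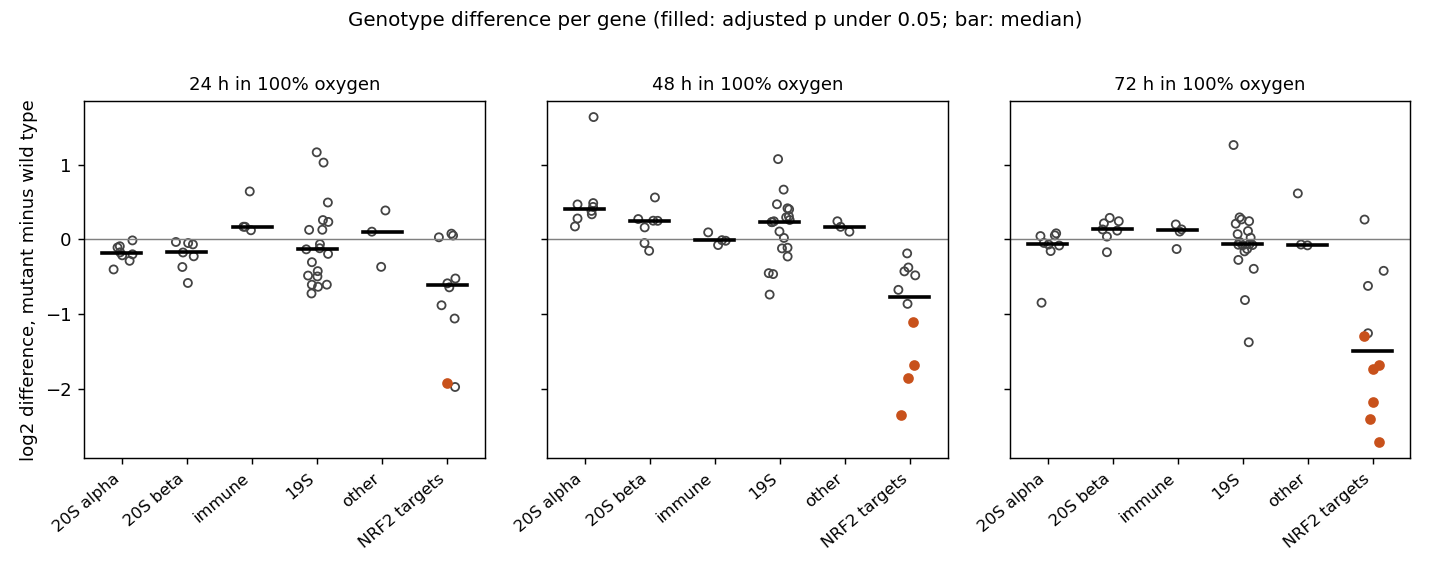
Log2 difference of mutant minus wild type at 24, 48 and 72 h of oxygen for each tested proteasome gene by class and for 10 NRF2 targets. Circles are genes, filled where called, and bars are medians; no proteasome gene is filled, while NRF2 targets reach below -2 at 48 and 72 h.

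Before oxygen the mutant sample differed, on the arrays that stood apart. Only Psmb5 was called, with 12131 and 11064 in the mutant against 6804 and 6892 in wild type (0.75 ± 0.18, 1.68-fold, adjusted p = 0.0456), where 2.75% of all probe sets were called. All 8 alpha genes were higher, with a median of 0.63 and Psma7 the highest (1.03 ± 0.26, adjusted p = 0.0701). Psmb6 had 1.02 ± 0.34 (adjusted p = 0.151) and Psmd14 1.0 ± 0.27 (adjusted p = 0.0837). All 4 immune genes were lower, with a median of -0.39, Psmb10 the lowest (-0.74 ± 0.22, adjusted p = 0.112). Of 41 members, 14 had an unadjusted p under 0.05, beside 4686 of all 26833 probe sets. The Psmb5 call was lost under 15 of 23 settings, among them leaving out either replicate of wild type 0 h (0.74 and 0.76) or of mutant 0 h (0.68 and 0.81). Other Psmb5 probe sets had 0.43 and -0.20. The muscle and squamous marker sums and the Gapdh ratios given above moved with these differences, and their part was not tested. Genotype and whatever set this sample apart cannot be told apart at 0 h.

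Against this 0 h sample the mutant gave 16 of 41 at 24 h (2 higher, 14 lower), 13 at 48 h (2 and 11) and 14 at 72 h (3 and 11), where 24.4%, 17.9% and 21.5% of all probe sets were called. By direction these were 12.2% higher and 12.1% lower at 24 h, 9.61% and 8.27% at 48 h, and 11% and 10.5% at 72 h. In the alpha class, 7, 5 and 5 of 8 were lower, and Psma7 went from 5387 to 1329 and 1267 at 24 h (-1.99 ± 0.26, adjusted p = 0.000601), 1660 and 2036 at 48 h, and 1678 and 1863 at 72 h. Psmd14 had -1.75 ± 0.27 at 24 h (adjusted p = 0.00139), with 2646 at 0 h and 824.8 and 648.1 at 24 h, Psmb6 -1.63 ± 0.34 (adjusted p = 0.0065) and Psmc6, an ATPase gene, -1.12 ± 0.22 (adjusted p = 0.00473). Psmd3, a lid subunit gene, rose by 1.40, 1.22 and 1.54 at 24, 48 and 72 h, from 937.0 to between 2173 and 3013. Psmd11 rose at 24 h (1.51 ± 0.44, adjusted p = 0.0297) and Psme3 at 72 h (1.87 ± 0.56, adjusted p = 0.0379). Psmd14 and Psmc6 were also called lower at 48 h (-1.13 and -0.96) and 72 h (-0.97 and -0.89), and Psma7 at 48 h (-1.51) and 72 h (-1.57). Further called falls were those of Psma1, Psma2, Psma3, Psma4, Psma5, Psma6, Psma8, Psmb1, Psmb4, Psmb5, Psmd6, Psmd9 and Psmd10 at 1 to 3 of the times, between -1.5 and -0.57.

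Most of these calls rested on the 0 h sample. With wild type at 0 h as the reference, 3, 3 and 7 of 41 members were called, where 10.2%, 6.45% and 12.9% of all probe sets were. The alpha medians were then -0.60, -0.15 and -0.15. Psma7 was called lower at 24 h (-0.96 ± 0.22, adjusted p = 0.0209) and no alpha gene at 48 or 72 h. The 19S class gave 4 higher calls at 72 h, Psmd3 (0.84), Psmd4 (0.90), Psmd5 (1.01) and Psmd8 (1.06), and 1 lower, Psmd10 (-1.48). The difference between genotypes in the change from 0 to 72 h was called for 0 of 41 members (1.36% of all probe sets), and that from 24 to 72 h for 0 (0.112%). At an unadjusted p under 0.05 there were 13 and 3 members, beside 3808 and 1983 of all 26833 probe sets.

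**Figure D5:**
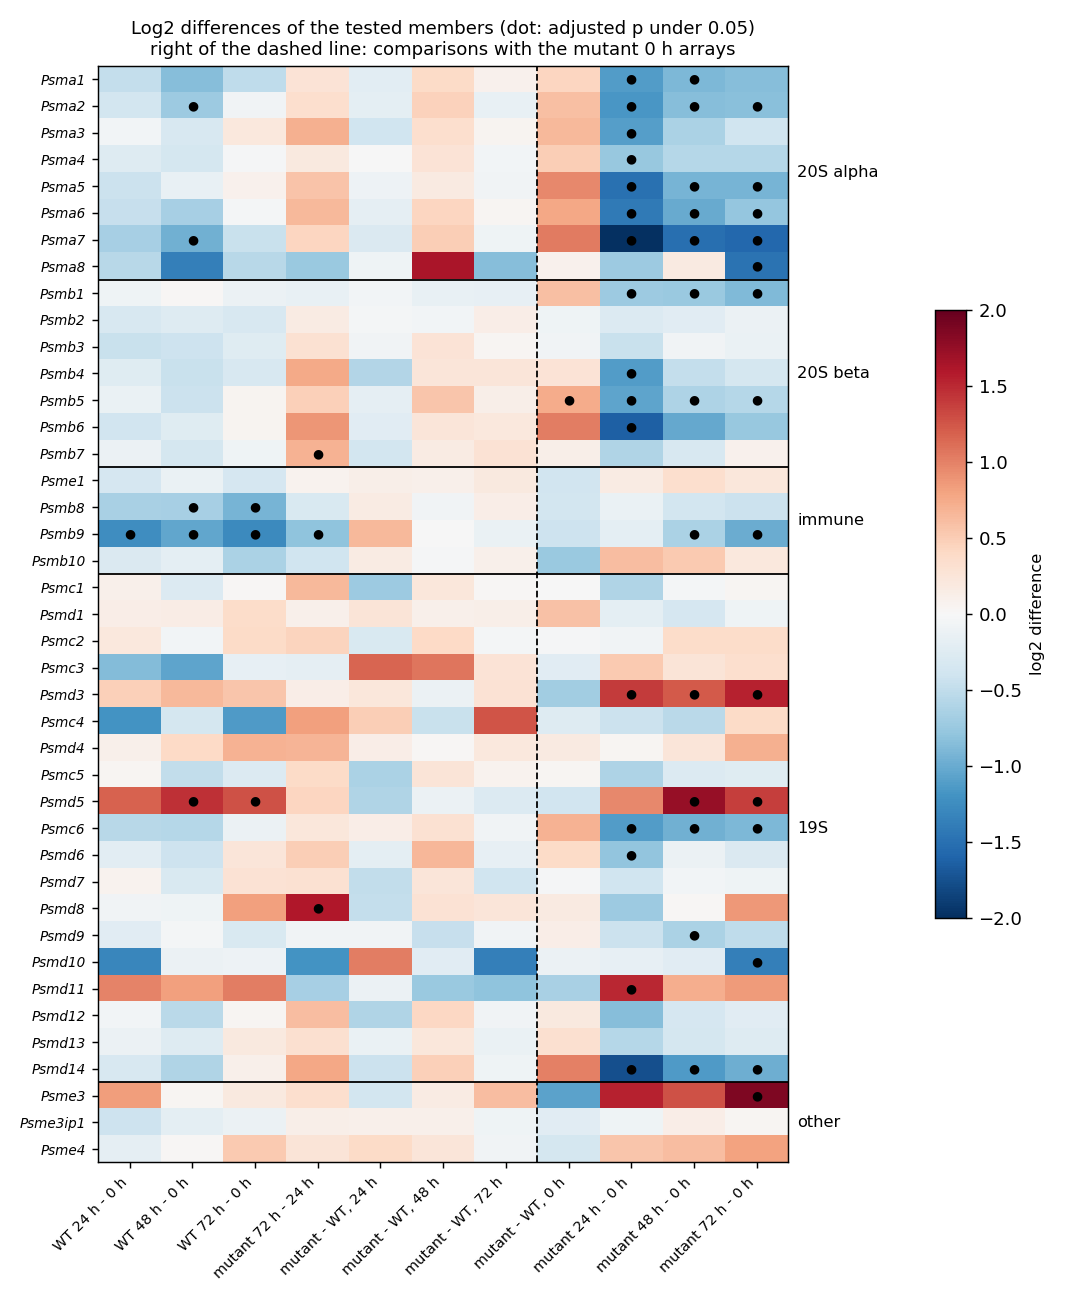
Log2 differences of the 41 tested members (rows, by class) in 11 comparisons (columns), red for higher and blue for lower, with a dot where the adjusted p was under 0.05. Dots crowd the columns right of the dashed line, which use the mutant 0 h arrays, and the 3 columns of mutant minus wild type under oxygen hold none.

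Among the activators, Psme3 and Psme4 gave no call in wild type or between genotypes. Psme3, the nuclear PA28 gamma, differed widely between replicates, with 1320 and 470.2 in wild type at 0 h. Psme4, the PA200 activator, measured 585.7 and 485.5 in wild type at 0 h and 668.1 and 962.8 at 72 h (0.53 ± 0.23, adjusted p = 0.21). Psme3ip1 stayed between 644.7 and 955.5 over all arrays of type A. Psmc3ip, a meiotic recombination factor, was at 14.7 to 49.1 and below the filter value of 195 on every array.

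Members of the same class followed each other across arrays to different degrees. Over the 14 arrays of type A, the median Pearson r between pairs was 0.79 for 20S alpha genes, 0.44 for 20S beta, 0.56 for immune and 0.25 for 19S, beside 0.01 for all tested probe sets. Between alpha and immune genes it was -0.10. Without the mutant 0 h array, over 13 arrays, the values were 0.61, 0.41, 0.70, 0.24 and 0.01, and 0.01 between alpha and immune genes. The arrays share their groups and RNA quality, so these values are descriptions.

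Of 15 members with several tested probe sets, all probe sets had the same sign for 10 at 24 h, 5 at 48 h and 11 at 72 h in wild type, and for 8 in the mean genotype difference. In the mutant against its own 0 h sample this was so for 6, 9 and 8 of the 15 at 24, 48 and 72 h, and from 24 to 72 h for 9. A gene's result is therefore that of 1 probe set.

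Genes that act with the proteasome were read beside it. None of 8 tested assembly and inhibitor genes was called in wild type at 24, 48 or 72 h. Of all probe sets, 1.72%, 6.64% and 7.83% were called at these times. Pomp, the chaperone of 20S maturation, was higher in the mutant at 0 h (1.14 ± 0.25, adjusted p = 0.0431), with 9910 on the array that stood apart against a wild type mean of 4513 ± 1128 (SD, n = 2). It was 1 of the 8, where 2.75% of all probe sets were called. Of 10 receptors and deubiquitinases that work with the proteasome, 0, 2 and 2 rose in wild type, where 0.962%, 3.25% and 4.26% of all probe sets were called higher. They were Sqstm1, the p62 receptor, at 48 h (0.75 ± 0.17) and 72 h (1.38 ± 0.17, adjusted p = 0.00104), Rad23b, a shuttle receptor, at 48 h (0.78 ± 0.21, adjusted p = 0.0483) and Ubqln1, another shuttle, at 72 h (0.93 ± 0.22, adjusted p = 0.0256). Vcp, the p97 unfoldase, rose at 72 h (0.68 ± 0.18, adjusted p = 0.048), 1 of 5 in its list, where 4.26% of all probe sets were called higher. Nfe2l1 had 0.14, 0.40 and 0.21 in wild type and 0.04 in the mean genotype difference, with no call. Between genotypes in the mean under oxygen, 0 of the 8 assembly, 10 receptor and 5 p97 genes were called. Of all probe sets 1.25% were, so these counts do not set the lists apart.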

How the data were processed

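Lung RNA of 8 groups was read on 3 array types. The authors deposited a linear intensity for each probe set on each array, with a 2%-trimmed mean of 800.2 to 800.5 on every array. That scaling was kept. The software that made the values is not stated in the sources used here. The 25th percentile of the array type (78.1, 126 and 106 for A, B and C) was added before taking log2, so folds of dim genes are understated. Probe sets above the 40th percentile (195, 272 and 211) on at least 2 arrays were tested, 8515, 8952 and 9366 of them. The test was limma 3.58.1 in R 4.3.3, two-sided, with 1 fit per array type over the 8 groups and Benjamini-Hochberg adjustment over all types together. A group with a single array borrows its spread from the other groups. The number of arrays limits the precision.

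Members and gene lists were chosen with earlier results of these data known. The genes named are members that were called, class extremes, catalytic, immune and activator genes, and genes of the other lists that were called or that a result turns on. Symbols came from the platform annotation. Replicate numbers were not taken to pair the samples, since not every pair of groups passed 0.1: deviations of arrays with the same number correlated at a median of 0.10, 0.13 and 0.04 on A, B and C, and above 0.1 in 7 of 15, 18 of 28 and 2 of 28 pairs. The scripts were tested on simulated data. The alternatives were a floor, quantile normalization, no filter, a 60th percentile filter, only the arrays compared, a replicate block, trend and robust, wild type 0 h as the reference for the mutant, and leaving out each replicate. A fit without the mutant 0 h arrays was added after seeing the data.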

Additional observations from a re-analysis of the deposited data

How the results depend on the processing

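With 2 arrays a group, and 1 in some, a missing call does not show that a gene did not change. Of 56 called gene results, 52 held with a floor, 50 with quantile normalization, 50 without a filter, 56 with the 60th percentile filter, 56 with trend and robust and 24 with only the arrays compared. None of these changed sign. Leaving out 1 replicate kept 716 of 857 and changed the sign of 0. These 857 include replicates of groups that a comparison does not use. Leaving those out keeps the difference and its sign as they were, so the count overstates how well calls held. Without the mutant 0 h arrays in the fit, chosen after seeing the data, 12 of 12 calls that do not use them held. The rest of the 56 results use those arrays, which stood apart. With the replicate block, 54 of 56 held, and it called 6 members at 48 h in wild type in place of 5.

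The number of members called moved as follows. At 0 h between genotypes, where 1 was called, the floor, quantile normalization and only the arrays compared gave 0, and the 60th percentile filter and trend and robust gave 3 each. Between genotypes at 48 h, trend and robust gave 1 in place of 0. In wild type, only the arrays compared gave 0, 2 and 1 at 24, 48 and 72 h in place of 1, 5 and 3, the 60th percentile filter gave 8 and 5 at 48 and 72 h, and trend and robust gave 9 and 6. In the mutant from 24 to 72 h, where 3 were called, the 60th percentile filter gave 5, trend and robust 6 and only the arrays compared 1. In the mutant against its own 0 h, only the arrays compared gave 4 at 48 h and 4 at 72 h in place of 13 and 14, and wild type 0 h as the reference gave 3, 3 and 7 in place of 16, 13 and 14. With that reference Psma5 (0.0177) and Psmb5 (0.12) at 48 h and Psma5 (0.0227), Psma6 (0.0097), Psmb5 (0.18) and Psmd14 (0.0306) at 72 h turned from lower to higher. The cause of these changes was not tested.

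Leaving out 1 replicate gave 0 to 1 members at 0 h between genotypes, 0 to 1, 1 to 6 and 2 to 3 in wild type at 24, 48 and 72 h, 1 to 17, 0 to 13 and 0 to 16 in the mutant against 0 h, and 0 to 3 from 24 to 72 h in the mutant. The other comparisons stayed at 0. Without replicate 1b of wild type 24 h or of mutant 0 h no array of type A remains for that group, so only 5 members could be tested there. The low ends of the ranges for the mutant against 0 h come from leaving out that mutant 0 h replicate.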
